A study of Homo sapiens with 8 samples.

Results

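The phospholipase C genes described here were PLCH1, PLCH2, PLCB1, PLCB2, PLCB3, PLCG1, PLCG2, PLCD1 and PLCD3, found by their symbols in a table of counts per gene. They made up 9 of the 63677 genes listed, and 8 of the 15646 genes expressed highly enough to be tested, PLCH2 being too low. PLCH1 had been chosen by its CPM (counts scaled to library size), which moved in opposite directions with the 2 drugs of the study, and the others as genes of its family. Its values and differences are therefore given as a description, with no test.

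RNA came from Jurkat cells, an established human line of T-cell acute lymphoblastic leukaemia, whose TAL1 protein was fused to FKBP12. dTAG-13 links a protein tagged with FKBP12 to a ubiquitin ligase, which leads to its destruction, and TAL1 is a transcription factor that binds DNA at E-box sequences. GSI usually stands for a gamma-secretase inhibitor, a drug that stops the cleavage that releases active NOTCH. The groups were dTAG-13 and GSI given together (the combination), GSI alone, dTAG-13 alone, and the solvent control DMSO, each with 2 libraries made after 24 hours. All cells carried the TAL1-FKBP12 fusion, so no group had untagged TAL1 alone. Doses, and whether the line was 1 clone, are not given in the labels. Nor do they say that the replicates were grown as separate cultures. The p-values are therefore set by the spread among these libraries, which may be technical only.

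Phospholipase C enzymes cut the membrane lipid PIP2 into IP3, which opens calcium channels of the endoplasmic reticulum, and diacylglycerol (DAG), which recruits protein kinase C and RasGRP proteins to the membrane. The classes differ in what switches them on. The beta enzymes respond to heterotrimeric G proteins, the gamma enzymes to tyrosine kinases, and the delta and eta enzymes (gene names PLCD and PLCH) are strongly sensitive to calcium. In T cells PLC-gamma1 is the enzyme that the T cell receptor uses to raise calcium, and the eta enzymes are known mainly from neurons.

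PLCH1 (ENSG00000114805) lies on the minus strand of chromosome 3, and its promoter is shown because this gene had the widest differences among the members. The sequences are those of RefSeq on GRCh38.p14, 5′ to 3′ on the strand of the gene, and each holds the 250 bases before the annotated start. That of PLCH1 is chr3:155745072-155745321, and its start lay 4 bases from the nearest GENCODE v29 start. That of PLCG2, chr16:81738791-81739040 on the plus strand, is set beside it because it also holds E-boxes while the level of PLCG2 passed no test. The PLCG2 start lay 56 bases from the nearest GENCODE v29 start. Capitals mark matches on either strand to CANNTG (an E-box), TGGGAA (the core bound by RBPJ, the DNA-binding partner of NOTCH) or GATA.
PLCH1: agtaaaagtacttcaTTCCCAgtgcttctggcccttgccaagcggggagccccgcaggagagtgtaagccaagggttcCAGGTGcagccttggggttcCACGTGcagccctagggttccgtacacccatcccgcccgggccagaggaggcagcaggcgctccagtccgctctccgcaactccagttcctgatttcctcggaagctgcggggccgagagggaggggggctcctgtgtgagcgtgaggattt
PLCG2: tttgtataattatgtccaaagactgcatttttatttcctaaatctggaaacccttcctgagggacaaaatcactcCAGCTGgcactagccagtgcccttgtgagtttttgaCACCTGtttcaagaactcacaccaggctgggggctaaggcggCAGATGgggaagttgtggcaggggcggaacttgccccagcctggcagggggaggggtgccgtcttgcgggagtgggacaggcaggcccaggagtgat
The PLCH1 sequence held 2 E-boxes, CAGGTG beginning 172 bases before the start and CACGTG beginning 152 bases before it. It also held 1 TGGGAA on the opposite strand, printed as TTCCCA, 235 bases before the start, and 0 matches to GATA. The PLCG2 sequence held 3 E-boxes and 0 matches to the other motifs. Of 35116 RefSeq promoters of the same length, 61.8% held CANNTG, 20.8% held TGGGAA and 45.6% held GATA. The narrower E-box CAGNTG, which TAL1 dimers prefer and which overlaps CANNTG, was in 42.5%, and CAGGTG was its 1 match in the PLCH1 sequence. All 3 E-boxes of the PLCG2 sequence were also of this narrower kind, read on either strand. Of the 9 members, 6 had a promoter entry. PLCB3, PLCD3 and PLCG1 had 0 matches to any of these motifs, and each of the 3 PLCH2 entries had at least 1 E-box and 1 TGGGAA. A match describes letters in this window and shows no binding.

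PLCH1 was highest with GSI, lowest with dTAG-13, and at nearly the same level in the combination and in DMSO. In CPM, its 2 libraries stood at 11.5 and 11.9 in the combination, 27.3 and 25.9 with GSI, 5.21 and 5.13 with dTAG-13, and 11.3 and 11.1 in DMSO. These values rest on 248 and 249 counts in the combination, 582 and 536 with GSI, 113 and 110 with dTAG-13, and 195 and 245 in DMSO. Both GSI libraries lay above all others and both dTAG-13 libraries below all others. The combination libraries lay just above the DMSO libraries, by less than the counting error. Exact 95% Poisson intervals, which cover counting error only, were 10.2 to 13.1 and 10.5 to 13.5 CPM in the combination, against 9.74 to 12.96 and 9.77 to 12.6 CPM in DMSO. In bulk RNA, fewer cells with the transcript and less transcript per cell cannot be told apart.

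**Figure D1:**
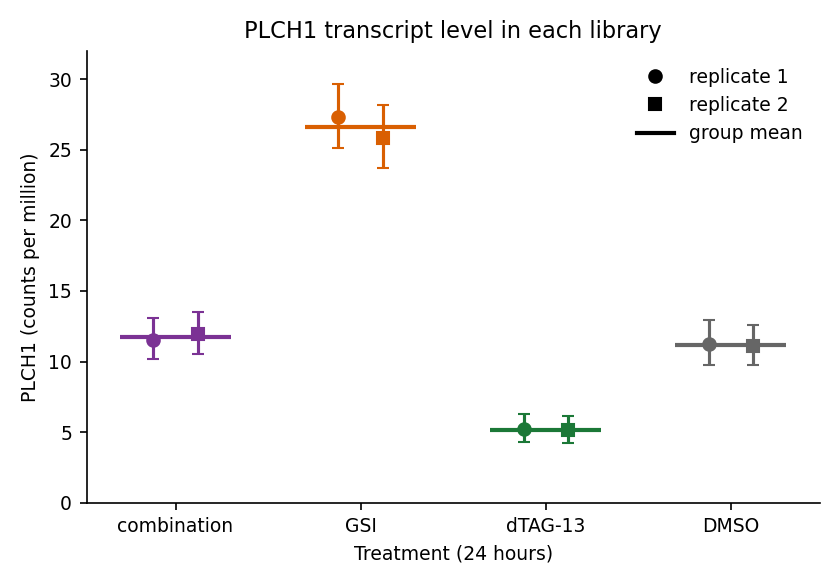
PLCH1 level in CPM (vertical axis) in each of the 8 libraries, grouped as combination, GSI, dTAG-13 and DMSO. Points are libraries (circle, replicate 1; square, replicate 2), bars are exact 95% Poisson intervals, and horizontal lines are group means. The GSI libraries sit at 27.3 and 25.9 CPM, the dTAG-13 libraries at 5.21 and 5.13 CPM, and the combination and DMSO libraries between 11.1 and 11.9 CPM.

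In the comparisons that chose it, PLCH1 was 2.38-fold higher with GSI than in DMSO, a log2 difference of 1.25 ± 0.11 (SE). With dTAG-13 it was 2.16-fold lower than in DMSO, a log2 difference of -1.11 ± 0.13 (SE). In the authors' deposited tables the log2 fold changes of PLCH1 were 1.24 with GSI and -1.12 with dTAG-13.

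The combination asked what each drug did in cells that also received the other. Its libraries took no part in choosing PLCH1, but the single-drug and DMSO libraries they are set against did, so a difference from either single drug was favoured by the choice. With GSI added to dTAG-13, PLCH1 averaged 11.7 ± 0.280 CPM in the combination and 5.17 ± 0.0554 CPM with dTAG-13 (SD, n = 2 each). That difference was 2.27-fold, or 1.18 ± 0.12 on the log2 scale (SE). With dTAG-13 added to GSI it averaged 11.7 ± 0.280 CPM in the combination, against 26.6 ± 1.03 CPM with GSI alone (SD, n = 2 each). That log2 difference was -1.18 ± 0.11 (SE), or 2.26-fold lower. The combination libraries lay between those of the single drugs.

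Against DMSO the combination left PLCH1 with a log2 difference of 0.07 ± 0.11 (SE), whose 95% interval ran from -0.18 to 0.32. That interval allows a change of up to 0.32 on the log2 scale and does not show that the levels were equal. If both single differences are added on the log2 scale, the combination departed from their sum by -0.06, with a 95% interval of -0.43 to 0.30. Since the single-drug values entered it, that departure is a description. With 1 library left out in turn, the log2 difference ran from 1.16 to 1.21 for the combination against dTAG-13 and from -1.22 to -1.14 for the combination against GSI.

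The 7 other tested members showed 1 call in the 6 comparisons, that of PLCB1 in the combination. Called means an adjusted p under 0.05. With dTAG-13 against DMSO 0 of the 7 were called by edgeR's quasi-likelihood test, adjusted over all 15646 genes, 0 had an unadjusted p under 0.05 and DESeq2 called 0. Over all tested genes 0% were called higher and 0.0192% lower there, and 3.84% had an unadjusted p under 0.05. With GSI against DMSO 0 of the 7 were called by edgeR, 1 had an unadjusted p under 0.05 and DESeq2 called 1. Over all genes 0.876% were called higher and 0.863% lower there, and 14.0% had an unadjusted p under 0.05. In the combination against DMSO 1 of the 7 was called lower, where over all genes 0.543% were called higher and 0.767% lower. There 1 of the 7 had an unadjusted p under 0.05, as did 12.4% of all genes.

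Setting the combination against each single drug gave no call among the 7. Against dTAG-13 edgeR called 0 of them, 1 had an unadjusted p under 0.05 and DESeq2 called 0, while 0.639% of all genes were called higher and 0.569% lower. Against GSI edgeR called 0, 0 had an unadjusted p under 0.05 and DESeq2 called 0. Over all genes 0.0192% were called higher and 0.0383% lower there, and 4.14% had an unadjusted p under 0.05. For the departure from that sum, edgeR called 0 of the 7 others and 0% of all genes in either direction, DESeq2 called 0 of the 7, 0 of the 7 had an unadjusted p under 0.05, and 260 of all genes had an unadjusted p under 0.05. The median log2 difference of the 8 tested members was -0.12 with dTAG-13, 0.09 with GSI and -0.06 in the combination, each against DMSO. PLCH1 is 1 of these 8, so its choice entered the medians with dTAG-13 and with GSI, which are a description. The medians over all tested genes were 0.01, 0.01 and 0.00 in those comparisons.

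**Figure D2:**
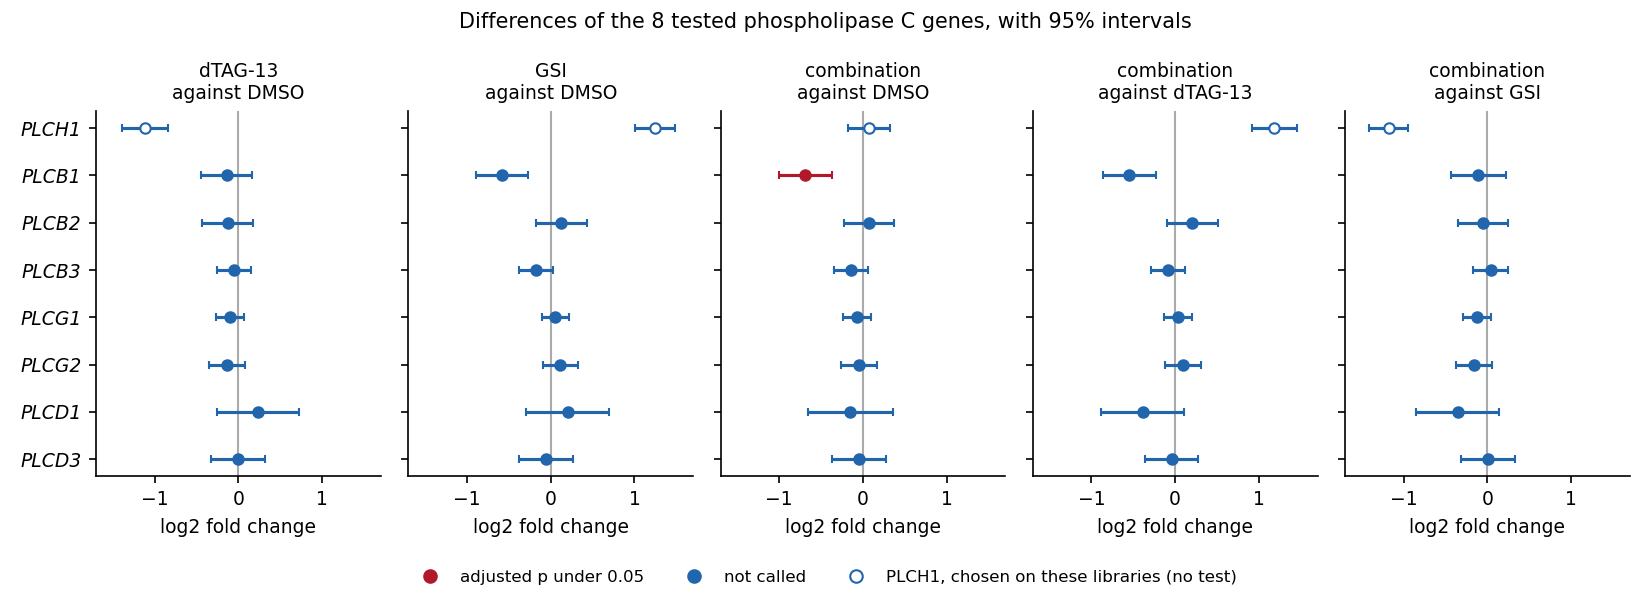
Log2 difference with its 95% interval (horizontal axis) for each of the 8 tested members, in 5 panels, 1 for each comparison. Red marks an adjusted p under 0.05, blue marks members that were not called, and open symbols mark PLCH1, to which no test applies. PLCH1 reaches 1.25 with GSI and -1.11 with dTAG-13, and PLCB1 at -0.69 in the combination against DMSO is the call among the other members.

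PLCB1 (ENSG00000182621, chromosome 20) encodes a beta enzyme that Gq proteins activate, and it fell in the combination. Its libraries stood at 8.70 and 11.6 CPM in the combination, 10.6 and 11.2 CPM with GSI, 15.7 and 13.9 CPM with dTAG-13, and 17.1 and 15.6 CPM in DMSO. All 4 libraries that received GSI lay below all 4 that did not, a pattern whose share over all tested genes was not computed. The combination libraries lay farther apart than those of GSI alone. Means were 10.1 ± 2.02 CPM in the combination and 16.4 ± 1.04 CPM in DMSO (SD, n = 2 each). The log2 difference was -0.69 ± 0.15 (SE), with a 95% interval of -1.01 to -0.37 and an adjusted p of 0.0402 by edgeR. This call was lost without DMSO replicate 1 (log2 difference -0.63, adjusted p = 0.350), without DMSO replicate 2 (-0.76, adjusted p = 0.261) and without combination replicate 1 (-0.50, adjusted p = 0.254), in edgeR fits. It held without combination replicate 2, at -0.91.

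With GSI alone PLCB1 averaged 10.9 ± 0.480 CPM, against 16.4 ± 1.04 CPM in DMSO (SD, n = 2 each). The log2 difference of -0.58, with a 95% interval of -0.90 to -0.27, missed the threshold at an adjusted p of 0.0712 by edgeR, and DESeq2 called it at an adjusted p of 0.0480. With dTAG-13 the log2 difference of PLCB1 from DMSO was -0.14 ± 0.14 (SE). The combination differed from dTAG-13 alone by -0.55 ± 0.15 (SE, adjusted p = 0.107, edgeR) and from GSI alone by -0.11 ± 0.15 (SE). In the authors' deposited tables PLCB1 had a log2 fold change of -0.70 in the combination with an adjusted p of 0.0665, and -0.60 with GSI with an adjusted p of 0.112. PLCB1 and PLCH1 thus stood on opposite sides of DMSO with GSI.

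PLCB2 (ENSG00000137841, chromosome 15), the beta enzyme typical of blood cells and responsive to G protein beta-gamma subunits, was called in no comparison. It averaged 30.1 ± 3.74 CPM in the combination, 31.3 ± 2.76 with GSI, 26.1 ± 3.58 with dTAG-13 and 28.5 ± 4.41 in DMSO (SD, n = 2 each). The range of its DMSO libraries, 25.4 to 31.6 CPM, overlapped that of every other group. PLCB3 (ENSG00000149782, chromosome 11), which Gq and beta-gamma subunits both activate, averaged 34.0 ± 2.45 CPM in the combination, 33.2 ± 0.372 with GSI, 36.0 ± 1.61 with dTAG-13 and 37.5 ± 0.926 in DMSO. Its largest log2 difference was -0.18 with GSI against DMSO, with a 95% interval of -0.38 to 0.03.

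PLCG1 (ENSG00000124181, chromosome 20), the enzyme of T cell receptor signalling, was called in no comparison. It averaged 200.5 ± 6.18 CPM in the combination, 218.8 ± 2.97 with GSI, 196.0 ± 5.29 with dTAG-13 and 210.3 ± 6.47 in DMSO (SD, n = 2 each). Its 95% intervals against DMSO ran from -0.24 to 0.10 in the combination, -0.11 to 0.22 with GSI and -0.27 to 0.06 with dTAG-13, on the log2 scale, so changes beyond 0.27 in size lie outside all of them. PLCG2 (ENSG00000197943, chromosome 16), the gamma enzyme best known from B cells and myeloid cells, averaged 32.1 ± 1.53 CPM in the combination, 35.8 ± 1.57 with GSI, 30.1 ± 2.31 with dTAG-13 and 33.1 ± 0.902 in DMSO. With dTAG-13 against DMSO the log2 difference was -0.10 for PLCG1 and -0.14 for PLCG2, and with GSI against DMSO it was 0.06 for PLCG1 and 0.11 for PLCG2. PLCB2 had the same signs, at -0.13 with dTAG-13 and 0.13 with GSI. None of these differences passed the test.

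The delta enzymes need calcium to work, and neither gene was called in any comparison. PLCD1 (ENSG00000187091, chromosome 3) averaged 2.97 ± 0.673 CPM in the combination, 3.80 ± 0.397 with GSI, 3.89 ± 0.557 with dTAG-13 and 3.34 ± 0.673 in DMSO (SD, n = 2 each). Only 52 to 92 counts per library stood behind these values, and its intervals were the widest of the 8, for example -0.66 to 0.36 in the combination against DMSO on the log2 scale. PLCD3 (ENSG00000161714, chromosome 17) averaged 9.20 ± 1.63 CPM in the combination, 9.16 ± 0.193 with GSI, 9.48 ± 0.832 with dTAG-13 and 9.52 ± 0.174 in DMSO, and every log2 difference was between -0.06 and 0.01. PLCD3 overlaps NMT1 on the opposite strand, which had 3208 to 4104 counts per library, and its level is uncertain, since how strand was set in the counting is not given in the sources used here. The same holds, less so, for PLCG1, which had 3563 to 4734 counts and overlaps ZHX3 on the opposite strand with 726 to 978.

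PLCH2 (ENSG00000149527, chromosome 1), the other eta gene, had 2 to 7 counts per library and was not tested. It averaged 0.261 ± 0.106 CPM in the combination, 0.166 ± 0.0304 with GSI, 0.209 ± 0.0345 with dTAG-13 and 0.149 ± 0.0467 in DMSO (SD, n = 2 each). A difference between groups was not detectable at this depth. PLCH1 was therefore the eta gene with a measurable level in these cells, and its antisense neighbours PLCH1-AS1 and PLCH1-AS2 had 0 and 0 to 3 counts per library.

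**Figure D3:**
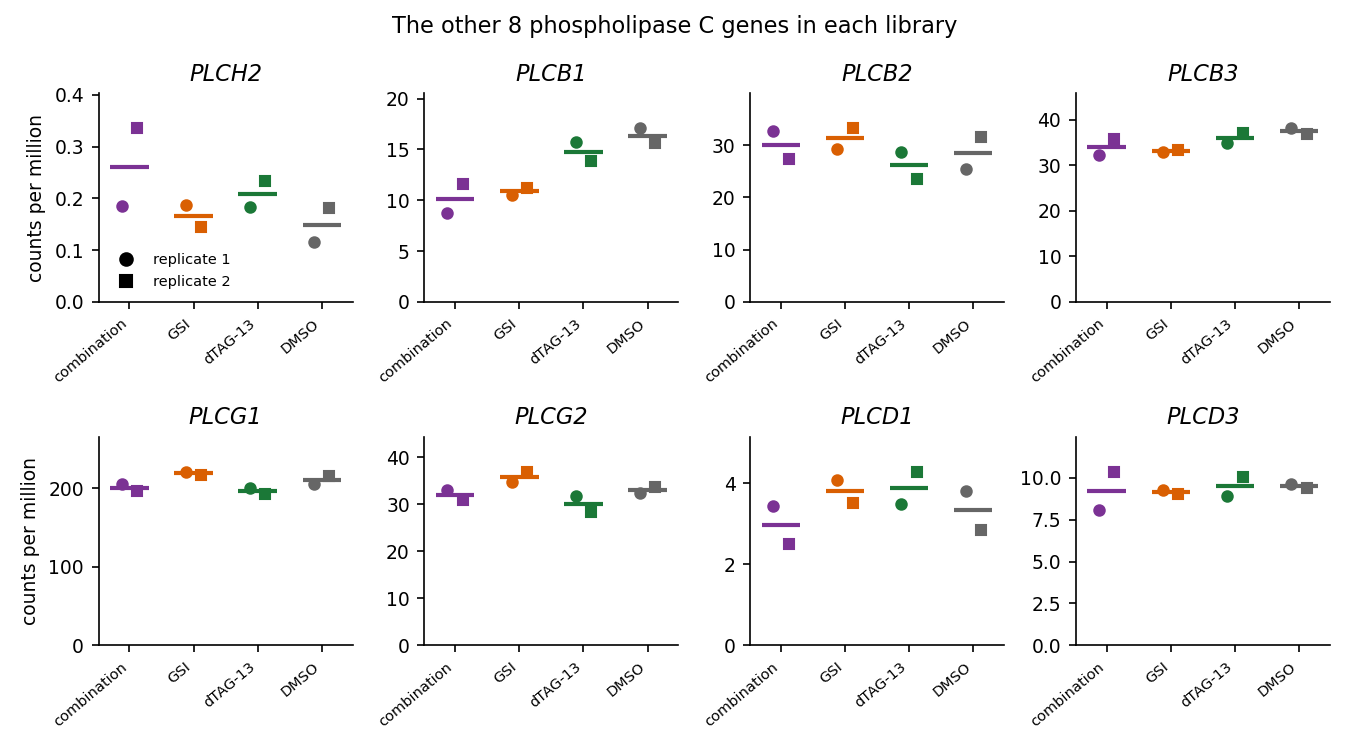
Level of the other 8 members in CPM (vertical axes, each panel with its own scale) in every library, grouped as combination, GSI, dTAG-13 and DMSO (circle, replicate 1; square, replicate 2). Horizontal lines are group means. PLCB1 is lower in the 4 libraries with GSI, and PLCG1 lies between 192.2 and 220.9 CPM throughout.

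Set per kilobase of exon, PLCG1 led the members in every group, and PLCH1 changed place with each single drug. In DMSO the level of PLCG1 was 21.8 CPM per kb, followed by PLCB3 at 7.56, PLCB2 at 3.88, PLCG2 at 2.47, PLCH1 at 1.56, PLCD3 at 1.41, PLCB1 at 0.939, PLCD1 at 0.773 and PLCH2 at 0.0138. No neighbours in that order overlapped over their 2 libraries. PLCH1 was number 5 in the combination and in DMSO, at 1.64 ± 0.0390 CPM per kb in the combination and 1.56 ± 0.0137 in DMSO (SD, n = 2 each). With GSI it was number 4 at 3.71 ± 0.144 CPM per kb, above PLCG2 at 2.67 ± 0.117. With dTAG-13 it was number 8 at 0.720 ± 0.00773 CPM per kb, below PLCB1 at 0.850 ± 0.0739 and PLCD1 at 0.903 ± 0.129, and PLCB1 and PLCD1 overlapped each other. PLCD1 and PLCB1 also overlapped in the combination, at 0.688 ± 0.156 and 0.582 ± 0.116 CPM per kb.

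**Figure D4:**
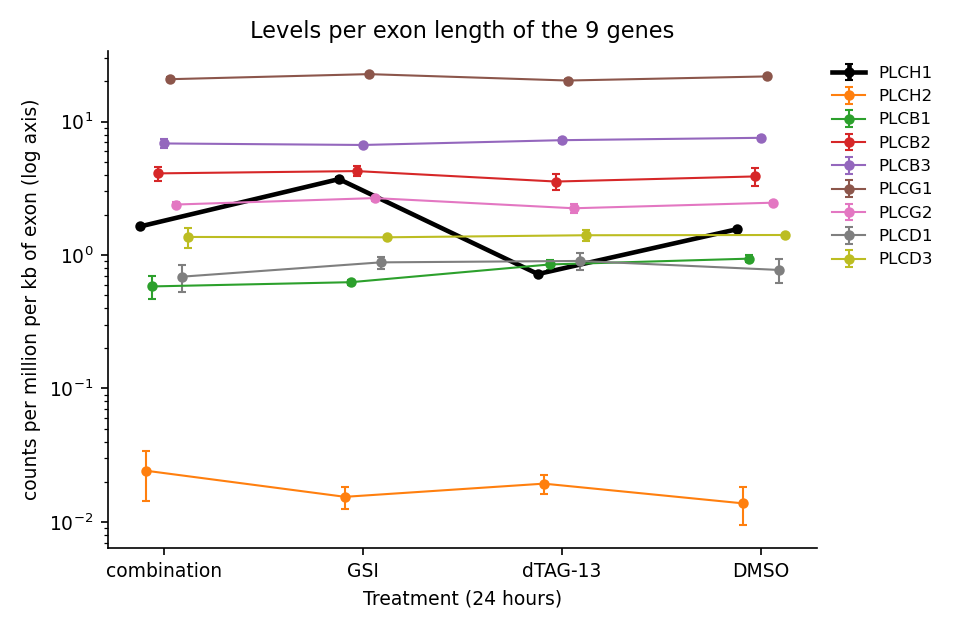
Mean level per kilobase of exon in CPM per kb (log axis) of each member in the combination, GSI, dTAG-13 and DMSO groups, with SD over 2 libraries as bars. PLCG1 lies highest in each group, and PLCH1 stands at 3.71 with GSI and 0.720 with dTAG-13.

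Of 9 other genes of the superfamily, 6 were tested and 0 were called by edgeR in any of the 6 comparisons, with 1 at an unadjusted p under 0.05 somewhere and 0 called by DESeq2. In single comparisons the share of all tested genes with an unadjusted p under 0.05 ran from 1.66% to 14.0%. The share over any of the 6 was not computed, here or for the lists below, with edgeR or DESeq2. The 6 tested genes included PLCE1, which Ras proteins regulate, and PLCL1 and PLCL2, relatives without catalytic activity. PLCL2, the highest of them, averaged 20.1 ± 1.56 CPM in the combination, 21.6 ± 0.0480 with GSI, 18.9 ± 0.597 with dTAG-13 and 19.6 ± 0.162 in DMSO (SD, n = 2 each). PLCB4, the remaining beta gene, had 0 to 2 counts per library, and PLCZ1, the sperm enzyme, and PLCXD3 were listed at 0.

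Together with these, 105 genes in 9 lists covered the supply of PIP2, the upstream receptors and G proteins, and the handling of IP3 and DAG, and 93 of them were tested. By edgeR 4 rose and 2 fell with GSI against DMSO, 2 rose and 4 fell in the combination against DMSO, and 2 rose and 1 fell in the combination against dTAG-13. Over all tested genes the shares called higher and lower were 0.876% and 0.863% with GSI, 0.543% and 0.767% in the combination against DMSO, and 0.639% and 0.569% in the combination against dTAG-13. With dTAG-13 against DMSO edgeR called 0 of the 93, 7 had an unadjusted p under 0.05 (3.84% of all genes did) and DESeq2 called 1. In the combination against GSI edgeR called 0, 10 had an unadjusted p under 0.05 (4.14% of all genes did) and DESeq2 called 0. For the departure from the added single effects edgeR called 0, 1 had an unadjusted p under 0.05 (1.66% of all genes did) and DESeq2 called 0. The calls of RASGRP1 and PRKCE held in all 4 fits that each left out 1 library of the groups compared, and each of the other calls was lost in at least 2 of those 4 fits. The median log2 difference of the 93 was -0.02 with dTAG-13, 0.03 with GSI and 0.02 in the combination against DMSO, close to the medians of all genes given above.

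Upstream of the enzymes edgeR called 1 gene. Among 14 tested genes of PIP2 supply 0 were called in any comparison by edgeR or DESeq2, and 2 had an unadjusted p under 0.05 in at least 1. PIP5K1A, a kinase that makes PIP2, averaged 150.2 ± 4.03 CPM in the combination and 146.6 ± 6.99 CPM in DMSO (SD, n = 2 each). Among 9 genes of G proteins that activate PLC-beta 0 were called by edgeR or DESeq2, and 2 had an unadjusted p under 0.05 in at least 1 comparison. GNB1, a beta subunit, had log2 differences from DMSO of -0.07 in the combination, -0.01 with GSI and -0.06 with dTAG-13. Of 12 genes of the T cell receptor pathway leading to PLC-gamma1, GRAP2 rose with GSI. GRAP2, the adaptor GADS that links SLP-76 to LAT, averaged 245.3 ± 11.1 CPM with GSI and 187.2 ± 4.64 CPM in DMSO (SD, n = 2 each), a log2 difference of 0.39 ± 0.08 (SE, adjusted p = 0.0397, edgeR). The call was lost whichever library was left out, with log2 differences from 0.34 to 0.43. The other 11 were not called with GSI, and the list's median log2 difference there was 0.23, against 0.01 over all genes. Of the 12, 7 had an unadjusted p under 0.05 in at least 1 comparison, and DESeq2 called 2 in at least 1. Without the share of all genes over any comparison, these counts do not show that a list differed from other genes.

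On the IP3 side, calls fell on enzymes that convert inositol phosphates and phosphoinositides. ITPKB, a kinase that turns IP3 into IP4, rose with GSI to 56.8 ± 1.26 CPM, against 43.5 ± 0.109 CPM in DMSO (SD, n = 2 each; log2 difference 0.38, adjusted p = 0.0486, edgeR). It also rose in the combination to 48.6 ± 2.35 CPM, against 36.3 ± 2.09 CPM with dTAG-13 (log2 difference 0.42, adjusted p = 0.0397, edgeR). INPP5D, the phosphatase SHIP1 that acts mainly on PIP3, fell in the combination to 26.6 ± 2.38 CPM, against 38.8 ± 4.07 CPM in DMSO (log2 difference -0.55, adjusted p = 0.0276, edgeR). It fell by 0.54 on the log2 scale in the combination against dTAG-13 (adjusted p = 0.0322, edgeR). The GSI call of ITPKB and the INPP5D call against dTAG-13 were lost whichever library was left out. The ITPKB call in the combination held only without combination replicate 2, and the INPP5D call against DMSO only without combination replicate 1. The GSI call of ITPKB was also lost with DESeq2's size factors, with DESeq2's Wald test and with the compared libraries alone. With the compared libraries alone the ITPKB and INPP5D calls against dTAG-13 were lost too. The other 8 of 10 tested genes of this list were not called. Of 8 genes for IP3 receptors and store-operated calcium entry 0 were called by edgeR in any comparison. In at least 1 comparison 1 was called by DESeq2 and 1 had an unadjusted p under 0.05, counts with no all-gene share beside them. STIM1, the calcium sensor of the endoplasmic reticulum, stood at 266.7 ± 11.3 CPM in the combination and 211.3 ± 7.81 CPM in DMSO (log2 difference 0.34, adjusted p = 0.0753, edgeR).

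On the DAG side RASGRP1 had the largest called rise of the 9 lists. RASGRP1, the DAG-bound exchange factor that activates Ras in T cells, averaged 226.0 ± 2.21 CPM in the combination, 224.2 ± 7.30 with GSI, 122.7 ± 3.93 with dTAG-13 and 118.4 ± 2.96 in DMSO (SD, n = 2 each). Both groups with GSI lay above both without it. Its log2 differences were 0.93 in the combination against DMSO (adjusted p = 3.66e-05), 0.92 with GSI against DMSO (4.85e-05) and 0.88 in the combination against dTAG-13 (6.72e-05), by edgeR. DGKZ, a diacylglycerol kinase that removes DAG, fell with GSI to 159.8 ± 10.2 CPM and in the combination to 154.6 ± 0.839 CPM, against 203.8 ± 2.91 CPM in DMSO (log2 differences -0.35 and -0.40, adjusted p = 0.0434 and 0.0283, edgeR). The GSI call held only without GSI replicate 2, and the combination call was lost whichever library was left out. DGKZ was the 1 called gene of 8 tested in its list.

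Of 14 genes for proteins that respond to DAG or belong to families with such proteins, 2 rose and 1 fell with GSI against DMSO. In the combination against DMSO 1 rose and 2 fell. The shares of all genes are those given above (0.876% higher and 0.863% lower with GSI, 0.543% and 0.767% in the combination). PRKCE, a calcium-independent protein kinase C, averaged 13.7 ± 0.573 CPM with dTAG-13 and 16.9 ± 0.562 CPM with GSI (SD, n = 2 each). Its log2 differences from DMSO there, -0.74 and -0.44, missed the threshold (adjusted p = 0.0509 and 0.0628, edgeR). It fell in the combination to 11.02 ± 0.537 CPM, against 22.8 ± 0.122 CPM in DMSO (SD, n = 2 each, log2 difference -1.05, adjusted p = 0.000308, edgeR). That call held whichever library was left out, at log2 differences from -1.10 to -1.002. PRKCH, another kinase of that kind, fell by 0.40 on the log2 scale in the combination (adjusted p = 0.0338, edgeR), a call that held only without combination replicate 2. PRKCA, a calcium-dependent form, fell with GSI to 236.4 ± 26.7 CPM, against 321.5 ± 11.7 CPM in DMSO (log2 difference -0.44, adjusted p = 0.0482, edgeR). That call held only without GSI replicate 1. PRKD2, a protein kinase D, rose with GSI to 126.1 ± 6.31 CPM, against 98.0 ± 0.104 CPM in DMSO (log2 difference 0.36, adjusted p = 0.0345, edgeR), and its call was lost whichever library was left out. Of 12 calcineurin and NFAT genes, RCAN1, a calcineurin inhibitor and NFAT target, rose in the combination to 90.2 ± 1.32 CPM, against 59.9 ± 1.19 CPM in DMSO (log2 difference 0.59, adjusted p = 0.00250, edgeR), a call lost without DMSO replicate 1 and also without DMSO replicate 2.

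The genes whose level followed PLCH1 most closely had smaller differences than PLCH1, which the choice favoured. PLCH1 was chosen by its moves with the drugs, while the measure of likeness ignores the size of a difference. Likeness was Pearson's r of log2 CPM over the 8 libraries, and 9988 genes averaging 5 CPM or more were compared. The 6 highest were CHST11 (0.995), a chondroitin sulfotransferase, PRKD2 (0.991), HHIP (0.989), a hedgehog-binding protein, FGFR1 (0.981), a growth factor receptor, MYO1G (0.975), a blood cell myosin, and MICAL1 (0.974), an enzyme that oxidises actin. Their Spearman rho lay between 0.833 and 0.952, but choosing by Spearman's rho gave 6 different genes. Leaving out a library also replaced part of the 6, as given in the closing section on processing. The 8 points come from 4 treatments and share their libraries, so r mainly reflects 4 group levels, and high values arise when the best of 9988 genes are taken.

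MYO1G averaged 246.7 ± 13.1 CPM in the combination, 328.8 ± 17.5 with GSI, 155.0 ± 3.56 with dTAG-13 and 209.9 ± 1.38 in DMSO (SD, n = 2 each). CHST11 averaged 239.9 ± 0.812 CPM in the combination, 278.6 ± 3.23 with GSI, 197.2 ± 1.80 with dTAG-13 and 232.5 ± 0.0839 in DMSO. Both were highest with GSI and lowest with dTAG-13, with the combination near or above DMSO. With GSI against DMSO the log2 differences of the 6 ran from 0.26 for CHST11 to 0.65 for MYO1G, beside 1.25 for PLCH1. With dTAG-13 against DMSO they ran from -0.45 for MICAL1 to -0.24 for CHST11, beside -1.11 for PLCH1. Their closeness to PLCH1 was the ground of their choice, so these values are given with no test.

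**Figure D5:**
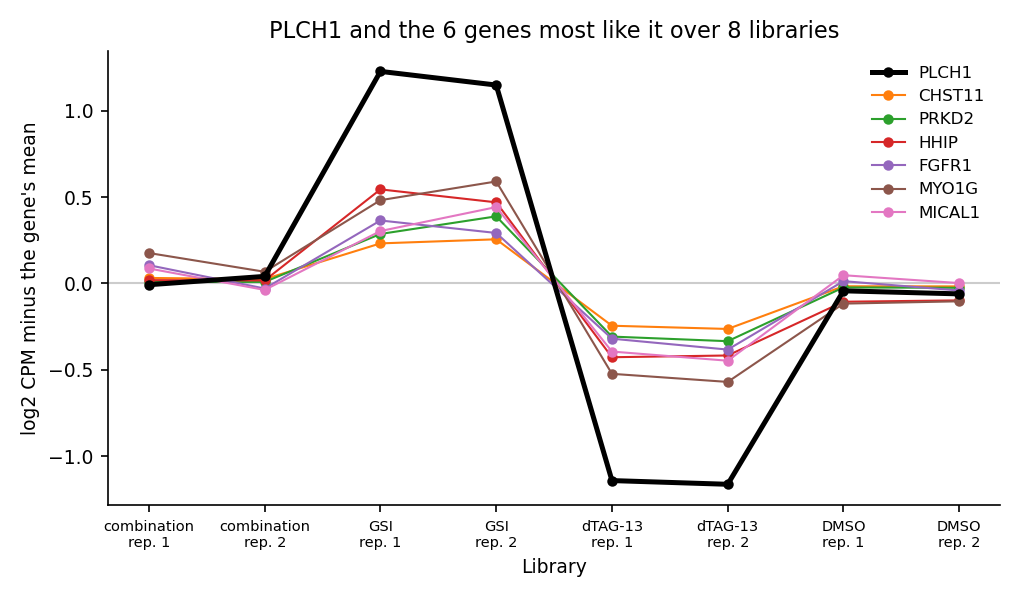
Log2 CPM minus the gene's own mean over the 8 libraries (vertical axis) for PLCH1 and the 6 genes with the highest Pearson's r to it, by library in the combination, GSI, dTAG-13 and DMSO groups. Lines join the libraries of a gene as a guide for the eye. PLCH1 has the widest span, and the 6 genes go up with GSI and down with dTAG-13 by smaller amounts.

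Library totals lay between 17544319 and 22180009 counts, and the replicates of a group correlated at 0.992 to 0.993 over genes while differing by more than counting noise. TAL1 transcript, which does not report the protein that dTAG-13 removes, averaged 197.9 ± 1.75 CPM in the combination, 202.9 ± 6.84 with GSI, 146.0 ± 1.24 with dTAG-13 and 160.0 ± 9.04 in DMSO (SD, n = 2 each). DTX1, a NOTCH target, averaged 18.4 ± 1.95 CPM in the combination, 18.6 ± 0.360 with GSI, 102.0 ± 3.57 with dTAG-13 and 146.0 ± 11.8 in DMSO. The 12 T cell markers summed to 3236 to 3744 CPM per library, with TRBC1 listed at 0, but single markers changed in the groups with GSI. TRAC rose to 166.3 ± 25.4 CPM in the combination and 212.6 ± 15.5 CPM with GSI, against 80.4 ± 3.30 CPM in DMSO (adjusted p = 0.000223 and 2.38e-05, edgeR). CD7 fell by 0.62 on the log2 scale in the combination and by 0.57 with GSI, and CD2 rose by 0.50 with GSI, each against DMSO (adjusted p = 0.0101, 0.0139 and 0.0230, edgeR). The 9 myeloid markers summed to 0.432 to 0.657 CPM and the 8 epithelial and stromal markers to 1.82 to 4.10 CPM, with 5 of those 8 at 0. The sum of the 6 B cell markers was 9.77 to 11.1 CPM in the combination, 9.20 to 11.3 with GSI, 11.2 to 11.4 with dTAG-13 and 12.5 to 14.0 in DMSO. Among them CR2 fell to 0.142 ± 0.00297 CPM in the combination and 0.166 ± 0.0304 CPM with GSI, against 3.33 ± 0.276 CPM in DMSO (adjusted p = 3.33e-05 and 4.85e-05, edgeR). The part of these markers in the values of PLCB1, PLCG2 and the genes called with GSI was not tested.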

How the data were processed

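Strand-specific paired-end libraries of total RNA were made, per the labels' protocols. The submitters' processing notes name hg19, featureCounts, STAR 2.5.2a and DESeq2 1.12.4. How strand was set, and the annotation, is not given in the sources used here. The authors deposited integer counts per gene and library, and 3 tables of 1 treatment each against DMSO with log2 fold changes, their errors, a score (fold change over error) and p-values, per the file headers. From the deposited counts, genes passing edgeR's filterByExpr (minimum count 10) were kept; they held at least 99.89% of each library. One quasi-likelihood model of 4 groups over 8 libraries was fitted (edgeR 4.0.16, R 4.3.3, limma 3.58.1, TMM scaling, robust, 4 residual degrees of freedom). The 6 comparisons used 2-sided F-tests, Benjamini-Hochberg adjustment over 15646 genes and a threshold of 0.05. Tests of PLCH1 in the combination had been planned and are not given, since the libraries it is set against chose the gene. An SE is the log2 difference divided by the root of F. CPM used TMM-scaled library sizes. The test was tested on simulated data.

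Exon lengths (union of exons) and chromosomes came from GENCODE v29 on GRCh38, and promoters from RefSeq on GRCh38.p14. Because the counts were made on hg19, no coordinates of counted genes are given. For 5 symbols on 2 rows, FCGR1A, ORAI1, PI4K2A, PRKCD and TRBC2, the row with most counts was used.

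The members, gene lists, comparisons and the rules below were chosen with earlier results of these data known. All 9 members are named, with up to 3 called genes per direction from each list, the most abundant gene of a list without calls, and the 6 genes most like PLCH1 among those with a mean of at least 5 CPM (log2 CPM with a prior count of 2). Alternatives were the Wald test of DESeq2 1.42.0, its size factors, keeping all genes with low counts, the 4 compared libraries alone, a replicate block and leaving out each library. Total counts set the precision: exact 95% Poisson intervals cover counting error only.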

Additional observations from a re-analysis of the deposited data

How the results depend on the processing

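PLCH1, to which no test applies, kept the direction of its difference in the combination against dTAG-13 and against GSI under all 5 other settings and with any 1 library left out. A group left with 1 library was assumed to vary like the others. Among the other members the calls of PLCB1 depended on the processing. The number of members called other than PLCH1 with GSI against DMSO, 0 in the report, was 1 with no filter on low counts, with DESeq2's Wald test, with the compared libraries alone, and with the replicate block or the crossed block. In the combination against DMSO it was 1, and ran from 0 to 1 when 1 library was left out. In the combination against dTAG-13 it was 0, and was 1 with no filter and with the replicate block, and ran from 0 to 1 when 1 library was left out. The PLCH1 log2 difference of dTAG-13 from DMSO moved to -1.13 without dTAG-13 replicate 1, by more than its SD. The 15 calls named from the pathway lists kept direction in every refit; 46 refits lost a call and 89 kept it. The cause of these shifts was not tested. Calls over all genes with dTAG-13 against DMSO, 0 higher and 3 lower, were 11 and 40 with no filter, 3 and 21 with DESeq2, 12 and 59 with the compared libraries alone and 3 and 20 with the replicate block. With GSI they were 137 and 135, and became 303 and 357 with no filter and 264 and 295 with the block. In the combination against DMSO they were 85 and 120, and became 244 and 288 with no filter and 182 and 231 with the block. Leaving out DMSO replicate 2 left 9 and 23 with GSI and 9 and 29 in the combination. Against dTAG-13 the combination had 100 and 89, which became 264 and 299 with no filter, 241 and 235 with the block and 47 and 49 with the compared libraries alone. Against GSI it had 3 and 6, which became 14 and 45 with no filter, 6 and 17 with DESeq2, 6 and 28 with the block and 1 and 2 with the compared libraries alone. Same-numbered libraries did not deviate together in every pair of groups (correlations from -0.108 to 0.214), so the numbers are not taken to pair the samples. With the DMSO numbers crossed, a choice made after seeing the data, the calls with GSI against DMSO were 716 and 865. Of the 6 genes most like PLCH1, 6 were shared with a prior count of 0.5, 4 with a minimum of 1 CPM, 0 by Spearman's rho and 3 to 4 when 1 library was left out. Low counts limit PLCH2, which was not tested, and PLCD1.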
